A study of Rattus norvegicus with 12 samples.

Results

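The genes described here encode calcineurin, its Rcan regulators and the NFAT transcription factors, followed in ventricular cardiomyocytes of newborn rats (NRVCM) stretched for 2, 6 or 24 h and in unstretched control cells. The members were the probes that the scanner files name Rcan1, Rcan2, Ppp3ca, Ppp3cb, Ppp3r1, Nfatc1, Nfatc2, Nfatc3 or Nfatc4, with control spots left out. These 9 names matched 11 of the 30367 probes on the array, for 8 genes, and 10 of these probes, for 7 genes, were bright enough to be tested among 18997 probes. No probe carried the name Nfatc1. The single Nfatc2 probe (rn4, chr3:159656384-159656443) was not well above background on any of the 12 arrays, which gives only a bound and no comparison.

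In every group the cells were grown in medium with 10% FCS on collagen-coated silicone membranes and had 24 h of culture before the stretch period. Stretched cultures were pulled rhythmically in both directions of the membrane, by 20% of its length, and control cultures lay unstretched on the same kind of membrane. Each of the 4 groups had 3 biological replicates per the series description, 1 array each, so 12 arrays in all. The labels give no culture time for the controls and do not say whether the replicates came from separate cell isolations, and the same 3 controls served all 3 times, so stretch and time in culture cannot be told apart.

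Calcineurin is a phosphatase switched on by calcium and calmodulin, built from a catalytic A subunit (Ppp3ca, Ppp3cb) and a calcium-binding B subunit (Ppp3r1). It strips phosphates from NFAT proteins (Nfatc1 to Nfatc4), which then enter the nucleus and act on genes together with partners such as AP-1, GATA4 and MEF2. Rcan proteins bind calcineurin and can inhibit it, and Rcan1 has an internal promoter that calcineurin and NFAT activate, which makes its short transcript a common readout of the pathway in heart muscle. In cardiomyocytes the pathway is known for driving hypertrophic growth. Arrays measure RNA, whereas calcineurin and NFAT are controlled largely at the level of protein activity, which was not measured here.

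Signals are given as a percent of the 75th percentile of intensity on the same array, so that 100% equals that percentile. They compare arrays for 1 probe and not 1 probe with another. Log2 changes come from limma over all 12 arrays, with standard errors and n = 3 arrays per group, and a probe was called when its Benjamini-Hochberg adjusted p over the 18997 probes was below 0.05. The 75th percentile lay between 1138 and 1672 intensity units, each array had 58717 spots of which 64.7% to 70.6% stood well above background, and saturation was flagged at 0 spots. Slide 1 held all control and 2 h arrays and 2 of the 6 h arrays, while slide 2 held the third 6 h array and all 24 h arrays, so the 24 h group is tied to the controls only through 6 h when the slide is a term in the model. All 7 cardiomyocyte markers examined were kept in the test. At 24 h 1 cardiomyocyte marker was called higher and 5 lower, 5 of 6 fibroblast markers lower, 4 of 5 endothelial markers lower, and of 4 smooth muscle markers 1 higher and 3 lower. With spike-in scaling, described further on, these counts at 24 h were 2 higher and 0 lower for cardiomyocytes, 1 and 1 for fibroblasts, 0 and 0 for endothelial cells, and 1 and 1 for smooth muscle. With 24 h of stretch the 5 markers of macrophages and leukocytes were all called lower, also under the 5 other scalings, their summed level being 0.482 to 0.501 times the 75th percentile at 24 h and 1.49 to 1.56 times in controls. Of the T cell markers, Cd3e, Cd3g and Cd2 were well above background on no array and Lck on 1, while Cd4, well above background on 2 of the 3 arrays at 24 h, was lower there by 1.57 on the log2 scale. Only 1 of the 5 T cell markers could be tested, so the fall of Cd4 is not read as a change in T cells. The summed level of the cardiomyocyte markers was 350.0 to 386 times the percentile at 24 h and 433 to 461 times in controls. In cultures of mixed cells, fewer cells of a type and less RNA per cell cannot be told apart, and the part of these shifts in the results on members was not tested.

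Of the 7 member genes tested by their brightest probe, Rcan1 was called higher at all 3 times. Nfatc4 was called lower at 2 h and 6 h, Rcan2 at 6 h and 24 h, and Ppp3cb at 6 h. That gave 2 of 7 members called at 2 h, 4 of 7 at 6 h and 2 of 7 at 24 h, where 7.13%, 14% and 44.6% of all probes were called. The 24 h count is therefore no larger a share than the background. The median change of the 7 genes was 0.01, -0.07 and -0.05 on the log2 scale at 2, 6 and 24 h, and that of all 12638 genes was -0.01, -0.05 and -0.08. Over the 4 groups together the moderated F test called Rcan1, Rcan2, Nfatc4 and Ppp3ca, 4 of 7, where 48.4% of probes were called.

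**Figure D1:**
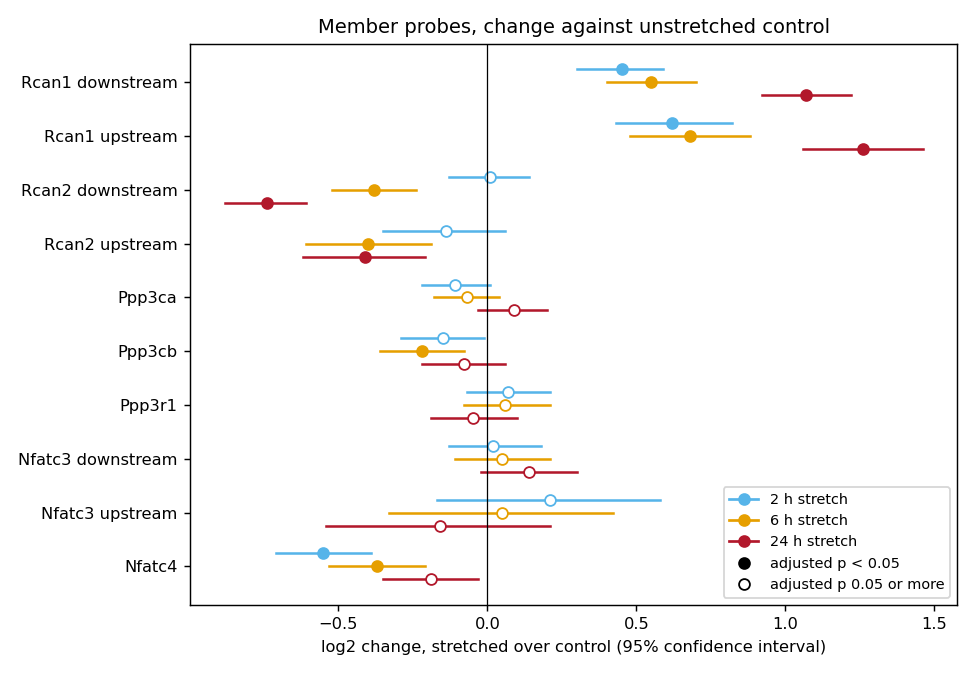
The log2 change of each kept member probe, stretched over control, is plotted for 2, 6 and 24 h of stretch with its 95% confidence interval from limma (n = 3 arrays per group), and filled points are called. Both Rcan1 probes lie right of 0 at every time, while Rcan2 lies left of 0 at 6 h and 24 h and Nfatc4 farthest left at 2 h; with spike-in scaling Nfatc4 was at 0.00 at 6 h and 0.21 at 24 h.

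Rcan1 was read by 2 probes, both on the minus strand of rn4 chromosome 11 and 22.1 kb apart. The downstream probe (chr11:32386621-32386680) had the higher mean signal and is listed in the files with the RefSeq transcript and 2 Ensembl transcripts. The upstream probe (chr11:32408711-32408770) is listed with the same RefSeq transcript but only 1 of those Ensembl transcripts. Whether the upstream probe reads the short transcript was not tested. The sequence of the upstream probe is shown beside that of the upstream Rcan2 probe, because related genes can share probe signal. Capitals mark the longest run that both sequences share, 10 of 60 bases.

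Rcan1 upstream probe: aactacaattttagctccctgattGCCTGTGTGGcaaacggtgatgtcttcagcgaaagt

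Rcan2 upstream probe: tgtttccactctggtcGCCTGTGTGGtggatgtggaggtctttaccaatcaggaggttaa

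No 2 probes of different members shared a longer run than these 10 bases.

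RefSeq's promoter table (build GRCr8) holds 6 of the 9 members, and its Rcan1 entry is the start inside the gene, 69.8 kb from the far 5′ end of the annotated gene and 10.1 kb from its 3′ end. These distances are on another build than the probe positions, so they do not place the probes relative to this start. The 250 bases before this start (chr11:45118237-45118486, minus strand) are shown because calcineurin and NFAT act on a promoter inside this gene, although the table does not say whether this start is that one, with the Rcan2 window (chr9:24672190-24672439, minus strand) beside it for contrast. Capitals mark matches, on either strand, to the NFAT core GGAAA, the AP-1 site TGACTCA or the cyclic AMP response element TGACGTCA.

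Rcan1 promoter: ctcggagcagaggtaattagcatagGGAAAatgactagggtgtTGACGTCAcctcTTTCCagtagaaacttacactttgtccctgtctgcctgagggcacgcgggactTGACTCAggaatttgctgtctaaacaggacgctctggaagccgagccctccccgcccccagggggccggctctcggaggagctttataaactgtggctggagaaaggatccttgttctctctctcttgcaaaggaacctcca

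Rcan2 promoter: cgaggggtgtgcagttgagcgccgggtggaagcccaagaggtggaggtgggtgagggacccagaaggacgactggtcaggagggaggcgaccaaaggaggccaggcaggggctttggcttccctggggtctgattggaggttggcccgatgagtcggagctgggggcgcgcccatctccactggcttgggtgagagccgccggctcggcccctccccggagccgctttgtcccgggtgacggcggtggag

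The Rcan1 window held 2 NFAT cores, whose first bases lie 225 and 195 bases before the start, 1 AP-1 site at 142 bases and 1 cyclic AMP response element at 207 bases, with no overlap among them. Of 33469 promoter windows of this length in the table, 56.9% held at least 1 NFAT core and 22.9% at least 2, while 4.05% held the AP-1 site and 1.59% the cyclic AMP response element. The Rcan2 window held none of these matches, and neither did those of Ppp3ca and Nfatc2. The windows of Ppp3cb and Ppp3r1 each held 1 NFAT core, at 72 and 250 bases, and no other match. A match is a run of letters and not a site shown to be bound.

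With the downstream Rcan1 probe the signal was 734%, 642% and 708% in the 3 controls, 909%, 953% and 973% at 2 h, 1040%, 994% and 1010% at 6 h, and 1450%, 1570% and 1360% at 24 h. All 9 stretched arrays lay above all 3 controls, and all 24 h arrays above the other 9. The log2 change was 0.45 ± 0.07 at 2 h (limma, adjusted p = 0.00544), 0.55 ± 0.07 at 6 h (adjusted p = 0.00129) and 1.07 ± 0.07 at 24 h (adjusted p = 2.04e-06), or 1.36-, 1.46- and 2.10-fold higher than in controls.

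The upstream Rcan1 probe gave 12.1%, 11.7% and 14.3% in controls, 18.4%, 20.3% and 19.9% at 2 h, 21.3%, 18.0% and 21.9% at 6 h, and 30.8%, 30.6% and 29.8% at 24 h. The stretched arrays again stood above every control, and the 2 h and 6 h arrays overlapped with each other. Its log2 change was 0.62 ± 0.09, 0.68 ± 0.09 and 1.26 ± 0.09 at 2, 6 and 24 h, with limma adjusted p = 0.00461, 0.0016 and 4.1e-06.

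Rcan1 was also compared between stretch times. At 6 h against 2 h the downstream probe differed by 0.11 (95% interval -0.04 to 0.25), which was not called, whereas 7.99% of probes were called in that comparison. At 24 h against 6 h it was 0.52 ± 0.07 higher (limma, adjusted p = 0.00043, with 21.6% of probes called), and at 24 h against 2 h 0.63 ± 0.07 higher (adjusted p = 5.77e-05, with 45.7% called). The upstream probe gave 0.06, 0.58 and 0.64 for the same 3 differences, the last 2 called. These changes share arrays and are not independent of one another.

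Whether the Rcan1 probes moved unequally was tested on their difference within each array. Relative to the downstream probe, the upstream probe changed by 0.18, 0.13 and 0.19 more on the log2 scale at 2, 6 and 24 h against control. An exact permutation test of the F statistic over all 15400 groupings of 12 arrays into 4 groups of 3 gave p = 0.19, and 0.19 after adjustment over the 3 genes with 2 kept probes. On the series matrix the 24 h difference was -0.07, so the order of the probes' changes is not settled by these arrays.

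With the slide as a term in the model, the downstream Rcan1 probe kept a log2 change of 0.45, 0.55 and 1.07 with limma adjusted p = 0.0104, 0.00607 and 0.00138. On slide 1 alone it was 0.45 at 2 h (limma, adjusted p = 0.0219) and 0.55 at 6 h (adjusted p = 0.0133). On slide 2 alone the 24 h arrays stood 0.52 above the 6 h array, the same size as over both slides, and with 1 array at 6 h no weight is put on a test. The upstream probe's 24 h against 6 h and 24 h against 2 h differences became 0.47 and 0.48 with the slide as a term (limma, adjusted p = 0.0569 and 0.0898). The 2 h call was also lost when arrays were scaled by their spike-in spots, with a log2 change of 0.48 and limma adjusted p = 0.391.

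**Figure D2:**
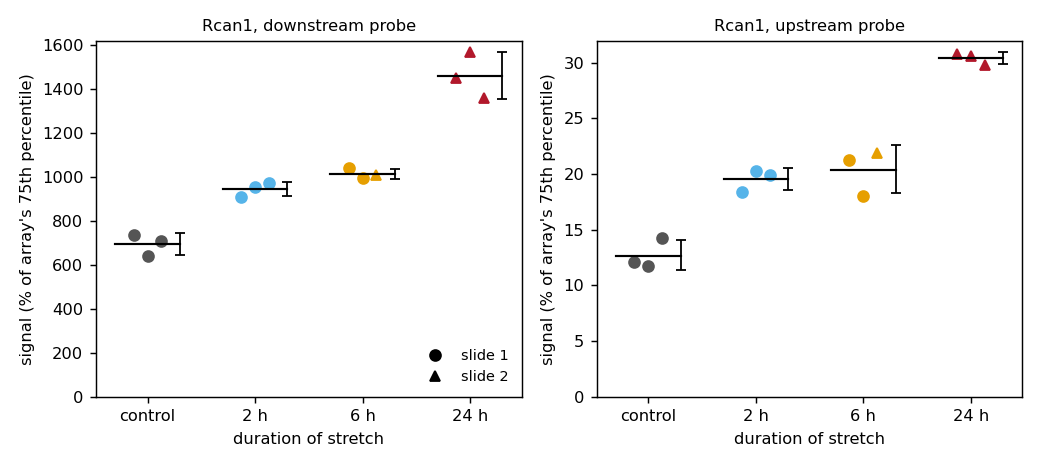
The signal of the downstream and the upstream Rcan1 probe, as a percent of the array's 75th percentile, is shown for each array by duration of stretch, with the geometric mean (line), 1 SD on the log scale (bar beside it) and the slide (circle or triangle). In both panels the 3 arrays at 24 h sit above all others, and the 2 h and 6 h arrays above the controls.

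Rcan2, the relative of Rcan1 that is abundant in heart and brain and also binds calcineurin, went the other way. Its downstream probe (rn4, chr9:12623919-12623978), listed with 3 Ensembl transcripts, read 88.9%, 94.8% and 98.9% in controls, 91.7%, 92.0% and 100.0% at 2 h, 70.1%, 75.2% and 71.8% at 6 h, and 59.7%, 55.7% and 53.4% at 24 h. The 2 h arrays overlapped the controls, all 6 h arrays lay below both groups, and all 24 h arrays lay below the 6 h arrays. The log2 change was 0.01 ± 0.06 at 2 h (95% interval -0.13 to 0.14), -0.38 ± 0.06 at 6 h (limma, adjusted p = 0.00425) and -0.74 ± 0.06 at 24 h (adjusted p = 1.05e-05), with values of -0.01 at 6 h and -0.34 at 24 h under spike-in scaling, neither called. At 24 h the level was 1.68-fold lower than in controls.

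The step between times was called as well, at -0.39 ± 0.06 for 6 h against 2 h (limma, adjusted p = 0.0109), -0.36 ± 0.06 for 24 h against 6 h (adjusted p = 0.00247) and -0.75 ± 0.06 for 24 h against 2 h (adjusted p = 1.08e-05). With spike-in scaling these steps were -0.04, -0.34 and -0.38, none called in limma (adjusted p = 0.836, 0.381 and 0.0789). Without the first 6 h replicate the 6 h against 2 h difference was -0.36 and no longer called (limma, adjusted p = 0.0545). With the slide as a term the Rcan2 changes against control were 0.01, -0.37 and -0.73, the last 2 still called, with limma adjusted p = 0.0171 and 0.00547, while 24 h against 6 h was -0.35 and no longer called (adjusted p = 0.0575). On slide 1 alone 6 h against 2 h was -0.38 with adjusted p = 0.0687.

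The upstream Rcan2 probe (rn4, chr9:12718086-12718145), 94.2 kb away and listed with 1 Ensembl transcript, behaved differently at 24 h. It read 54.7%, 63.1% and 60.5% in controls, 57.7%, 46.6% and 57.4% at 2 h, 47.4%, 42.9% and 44.6% at 6 h, and 47.9%, 41.4% and 44.7% at 24 h. All 6 h and 24 h arrays lay below the controls but overlapped each other. The log2 change was -0.14 ± 0.09 at 2 h, -0.40 ± 0.09 at 6 h and -0.41 ± 0.09 at 24 h, the last 2 called (limma, adjusted p = 0.0186 and 0.00497).

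With the slide as a term the changes stayed at -0.40 and -0.40 at 6 h and 24 h, but with larger standard errors they were not called (limma, adjusted p = 0.053 and 0.179). Array median scaling gave -0.31 and -0.21 (adjusted p = 0.0507 and 0.0774), and spike-in scaling -0.03 and -0.01, none called. The 6 h call was also lost without control replicate 2 (-0.36), control replicate 3 (-0.39), 6 h replicate 2 (-0.37) or 6 h replicate 3 (-0.40), all in limma.

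For Rcan2 the difference between probes itself varied among the groups. Relative to the downstream probe, the upstream probe's change was -0.15 at 2 h, -0.02 at 6 h and 0.33 at 24 h on the log2 scale. The exact permutation test over 15400 groupings gave p = 0.00662, or 0.0199 adjusted over the 3 genes. The same 24 h difference was 0.33 after normexp and quantile normalization (exact permutation p = 0.00883) and 0.30 in the series matrix (exact permutation p = 0.00662). All 24 h arrays and the third 6 h array were on slide 2, and this test had no term for the slide. On slide 2 alone, the change at 24 h against 6 h was -0.35 for the downstream and -0.00 for the upstream probe, with 1 array at 6 h. The part of the slide in the difference between probes was not tested.

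**Figure D3:**
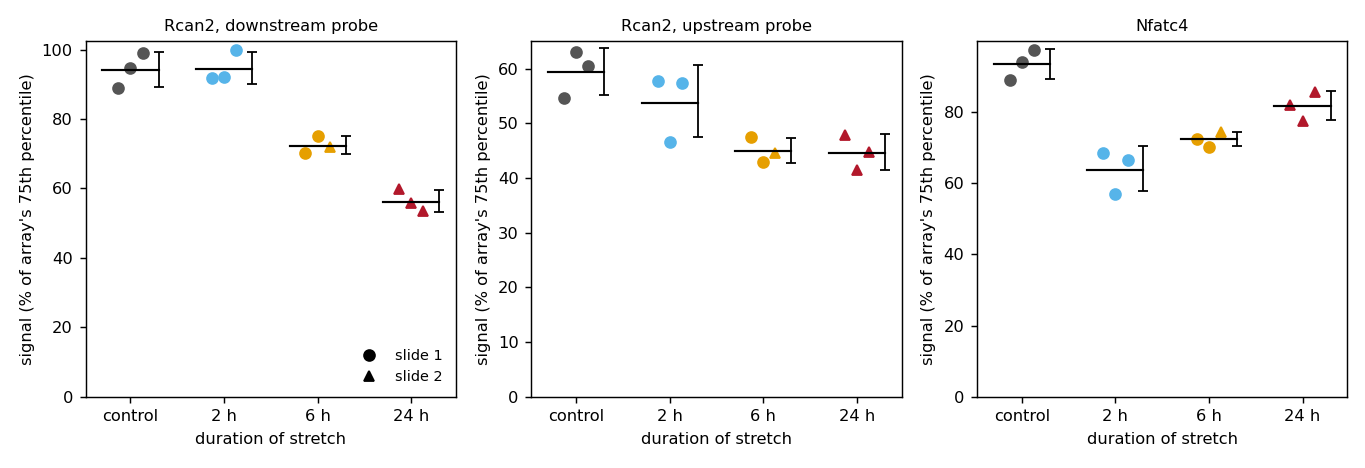
The signal of both Rcan2 probes and of the Nfatc4 probe, as a percent of the array's 75th percentile, is shown for each array by duration of stretch, with the geometric mean (line), 1 SD on the log scale (bar) and the slide (circle or triangle). The downstream Rcan2 probe steps down at 6 h and again at 24 h, the upstream probe is at a like level at 6 h and 24 h, and Nfatc4 is lowest at 2 h; with spike-in scaling the 6 h changes of Rcan2 and Nfatc4 were -0.01 and 0.00.

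The calcineurin subunits moved little. Ppp3ca (rn4, chr2:234375355-234375414), the alpha form of the catalytic subunit, read 47.3%, 51.7% and 50.9% in controls, 47.1%, 46.4% and 45.9% at 2 h, 48.3%, 48.6% and 45.8% at 6 h, and 55.6%, 51.1% and 52.5% at 24 h. The 24 h arrays lay above the 2 h and 6 h arrays and overlapped the controls. Its log2 change against control was -0.11 (95% interval -0.22 to 0.01), -0.07 (-0.18 to 0.04) and 0.09 (-0.03 to 0.20) at 2, 6 and 24 h, none of them called. Between 24 h and 2 h it was 0.19 ± 0.05 higher (limma, adjusted p = 0.0119), which with the slide as a term was 0.27 with adjusted p = 0.0987. At 24 h against control it was called under array median scaling (0.28), quantile normalization (0.14) and spike-in scaling (0.49) in limma.

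Ppp3cb (rn4, chr15:4029961-4030020), the beta form of the catalytic subunit, read 47.5%, 40.4% and 39.6% in controls, 38.8%, 38.2% and 37.6% at 2 h, 36.3%, 36.2% and 36.8% at 6 h, and 39.6%, 39.6% and 41.0% at 24 h. One control stood above all other arrays, and the 6 h arrays were the lowest. At 6 h the log2 change was -0.22 ± 0.06 (limma, adjusted p = 0.0471), and without that control it was -0.13 (limma, adjusted p = 0.0737). The call was lost in 11 of 12 fits that left out 1 array and under every other scaling tried, with 0.16 under spike-in scaling. At 2 h and 24 h the changes were -0.15 (95% interval -0.29 to -0.01) and -0.08 (-0.22 to 0.06), not called.

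Ppp3r1 (rn4, chr14:98093248-98093307), the regulatory B subunit, read 20.4%, 20.0% and 21.3% in controls, 20.4%, 23.1% and 21.4% at 2 h, 22.0%, 22.0% and 20.5% at 6 h, and 21.0%, 18.5% and 20.3% at 24 h. All groups overlapped. Its changes of 0.07 (95% interval -0.07 to 0.21), 0.06 (-0.08 to 0.21) and -0.05 (-0.19 to 0.10) were not called. RefSeq's gene table lists pseudogenes of Ppp3r1, and whether this probe also reads them was not tested.

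Among the NFAT genes, Nfatc4 changed and Nfatc3 was not called. Nfatc4 (rn4, chr15:33978784-33978843), an NFAT form able to drive cardiac hypertrophy in mice, read 88.9%, 94.1% and 97.3% in controls, 68.4%, 56.9% and 66.5% at 2 h, 72.5%, 70.2% and 74.2% at 6 h, and 82.0%, 77.5% and 85.7% at 24 h. The groups did not overlap, and their order was 2 h, 6 h, 24 h and control from low to high. The log2 change was -0.55 ± 0.07 at 2 h (limma, adjusted p = 0.00353), -0.37 ± 0.07 at 6 h (adjusted p = 0.00937) and -0.19 ± 0.07 at 24 h (adjusted p = 0.0511).

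The 24 h level of Nfatc4 was above the 2 h level by 0.36 ± 0.07 (limma, adjusted p = 0.00284), while the steps of 0.18 between neighbouring times were not called (adjusted p = 0.144 and 0.11). With the slide as a term the changes against control were -0.55, -0.39 and -0.25, with limma adjusted p = 0.00681, 0.0243 and 0.27, and the 24 h against 2 h difference was 0.30 with adjusted p = 0.197. With spike-in scaling the changes were -0.52, 0.00 and 0.21, none called, and with array median scaling the 24 h change was 0.00. The 24 h value lay close to the threshold and was called, for example, without 2 h replicate 2 (limma, adjusted p = 0.0159), without 2 h replicate 1 (0.0415) and without control replicate 1 (0.0465).

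Nfatc3, an NFAT form also expressed in heart muscle, had 2 kept probes 13.3 kb apart. The downstream probe (rn4, chr19:35982028-35982087) read 376%, 388% and 363% in controls, 411%, 337% and 403% at 2 h, 393%, 381% and 395% at 6 h, and 413%, 427% and 400.0% at 24 h. The 24 h arrays lay above the controls, and the other groups overlapped them. Its changes of 0.02 (95% interval -0.13 to 0.18), 0.05 (-0.11 to 0.21) and 0.14 (-0.02 to 0.30) were not called, although 24 h was called with array median scaling (0.33), spike-in scaling (0.54), normexp and quantile normalization (0.19) and without 2 h replicate 2 (0.14) in limma.

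The upstream Nfatc3 probe (rn4, chr19:35968775-35968834) lay near the low end of the detected range, between 3.26% and 5.10% on the 12 arrays. Its groups overlapped in the comparisons with control, with changes of 0.21 ± 0.17, 0.05 ± 0.17 and -0.16 ± 0.17, none called. The exact permutation test of the difference between the Nfatc3 probes gave p = 0.145, or 0.19 adjusted over the 3 genes.

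How arrays are scaled sets the level that counts as no change. Spike-in scaling moved the median of all probes at 6 h to 0.32, against -0.06 with the 75th percentile, and at 24 h to 0.31, against -0.10, and array median scaling moved it to 0.10 at 24 h. Relative to the median of all probes, which cancels any scaling by 1 factor per array, the change of Rcan1 was 0.45, 0.61 and 1.17 at 2, 6 and 24 h. That of Rcan2 was 0.01, -0.32 and -0.65, and that of Nfatc4 -0.55, -0.31 and -0.10. One control array had spike-in spots at 8.48 on the log2 scale, above the other 11 at 7.85 to 8.24.

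**Figure D4:**
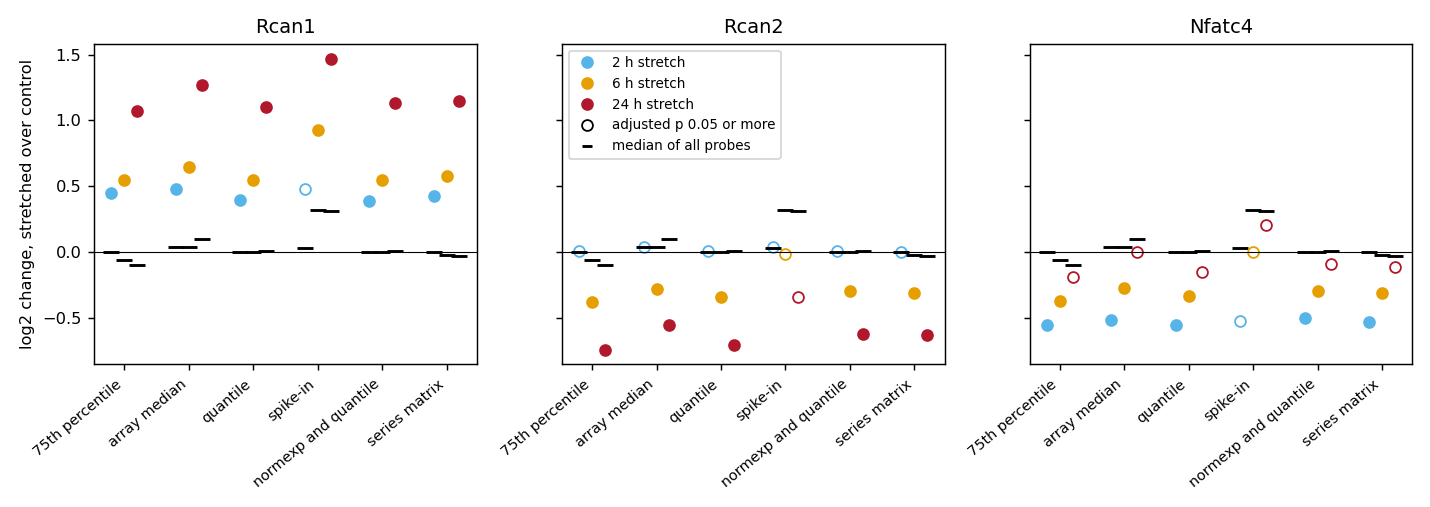
Log2 changes of the brightest probe of Rcan1, Rcan2 and Nfatc4, stretched over control, are shown for 6 ways of scaling the arrays, with open points not called and black dashes at the median of all probes. Rcan1 lies above 0 throughout (0.39 to 1.47), while spike-in scaling lifts Rcan2 and Nfatc4 together with the median of all probes, Nfatc4 to 0.00 at 6 h and 0.21 at 24 h.

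Beyond the members, the regulators and targets of the pathway were counted by 1 probe per gene. Among all 12638 genes, 2.71% were called higher and 5.36% lower at 2 h, 4.67% and 11.4% at 6 h, and 16.6% and 31.6% at 24 h. Of 14 tested calcineurin subunits and regulators, 1 rose at 2 h, 1 rose and 1 fell at 6 h, and 2 rose and 3 fell at 24 h, with a median change of 0.01, -0.09 and 0.01. Ppp3r2, the testis form of the B subunit, was not well above background on any array.

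Lmcd1, a LIM-domain protein that enhances calcineurin signalling in mouse heart, changed by 0.57, 0.73 and 1.22 at 2, 6 and 24 h (limma, adjusted p = 0.00463, 0.00112 and 2.96e-06). Fkbp1a, which encodes the FK506-binding protein, rose by 0.30 at 24 h. Myoz1, a Z-disc protein that tethers calcineurin, fell by 0.91 at 24 h. Ppp3cc, the third catalytic form, fell by 0.25 at 6 h and by 0.28 at 24 h, but stood at 0.12 and 0.13 with spike-in scaling. Rcan3, the remaining Rcan gene, was at -0.19 at 24 h, a call that none of the 5 other scalings kept and whose sign 4 of them turned.

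Of 13 NFAT kinases and inhibitors, 4 rose and 1 fell at 2 h, 2 rose and 2 fell at 6 h, and 4 rose and 4 fell at 24 h, with medians of 0.01, -0.06 and -0.05. Dyrk1a and Dyrk2, kinases that phosphorylate NFAT and so prepare its export from the nucleus, rose by 0.28 and 0.29 at 2 h. Csnk1d, a casein kinase acting on NFAT, rose by 0.19, 0.17 and 0.25 at the 3 times. Of the 5 other scalings, 1 kept its 2 h call, 3 its 6 h call and 5 its 24 h call. The gene called lower at 2 h was Mapk8, which encodes the kinase JNK1; its probe was not well above background on any 2 h array and close to that limit in controls, so no fold is given. Dyrk1b, a kinase of the same family as Dyrk1a, was lower by 0.35 at 6 h, but at 0.02 under spike-in scaling, and Dyrk2 rose by 0.19. Csnk1a1, another casein kinase, was lower by 0.20 at 6 h, a call that none of the 5 other scalings kept, with 0.17 under spike-in scaling.

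At 24 h Homer3, a scaffold that competes with calcineurin for NFAT, rose by 0.33 and Dyrk1a by 0.26. Gsk3a, a kinase that rephosphorylates NFAT, and Dyrk1b were at -0.29 each, and at 0.12 and 0.11 with spike-in scaling. The Gsk3a call was kept by 1 of the 5 other scalings and the Dyrk1b call by 2.

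NFAT partners gave 1 call at 2 h, 1 at 6 h and 2 at 24 h among 5 genes, with medians of -0.13, -0.07 and -0.16. Mef2c, a cardiac transcription factor that cooperates with NFAT, changed by -0.27, -0.32 and -0.58 (limma, adjusted p = 0.0247, 0.00695 and 3.71e-05), with 0.06 at 6 h under spike-in scaling. Nfat5, the NFAT relative that calcineurin does not control, was at -0.22 at 24 h, and at 0.18 with spike-in scaling.

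Genes for calcium entry were not called at 2 h in limma, where 0 of 10 passed and 2 had an unadjusted p below 0.05. At 6 h 3 fell (Stim1, Orai3 and Trpc6), each of them above 0 with spike-in scaling. Their 6 h calls were kept by 3, 3 and 1 of the 5 other scalings. At 24 h 1 rose and 4 fell. The medians were -0.10, -0.05 and -0.29 at 2, 6 and 24 h. Trpc6, a receptor-operated calcium channel, fell by 0.81 and Cacna1c, the pore of the L-type calcium channel, fell by 0.55 at 24 h. With spike-in scaling they were at -0.41 and -0.15, and each call was kept by 4 of the 5 other scalings. Stim1, the calcium sensor of the internal store, was at -0.24 at 6 h and -0.37 at 24 h, and at 0.14 and 0.03 with spike-in scaling, and Orai3 was at -0.20 and -0.33, against 0.18 and 0.07. Trpc4 was not well above background on any array.

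Of 8 cardiac genes known to respond to calcineurin and NFAT, 2 rose at 2 h, 2 rose and 1 fell at 6 h, and 4 rose and 2 fell at 24 h, with medians of 0.04, -0.09 and 0.23. Nppb, which encodes brain natriuretic peptide, rose by 0.45, 0.75 and 0.98 at 2, 6 and 24 h (limma, adjusted p = 0.0101, 0.000872 and 7.7e-06). Nppa, which encodes atrial natriuretic peptide, was at -0.17 and -0.09 at 2 h and 6 h, not called, and rose by 0.69 at 24 h. Acta1, skeletal alpha-actin, rose by 0.30, 0.60 and 0.32. Its 2 h call was kept by 2 of the 5 other scalings, and the 2 h call of Nppb by 3. Myh7, the slow myosin heavy chain of the fetal programme, was at -0.38 at 24 h, and at 0.02 under spike-in scaling. The gene that fell at 6 h was Trpc6, at -0.24, and at 0.14 under spike-in scaling. This call was kept by 1 of the 5 other scalings. Trpc6 is also on the calcium entry list.

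**Figure D5:**
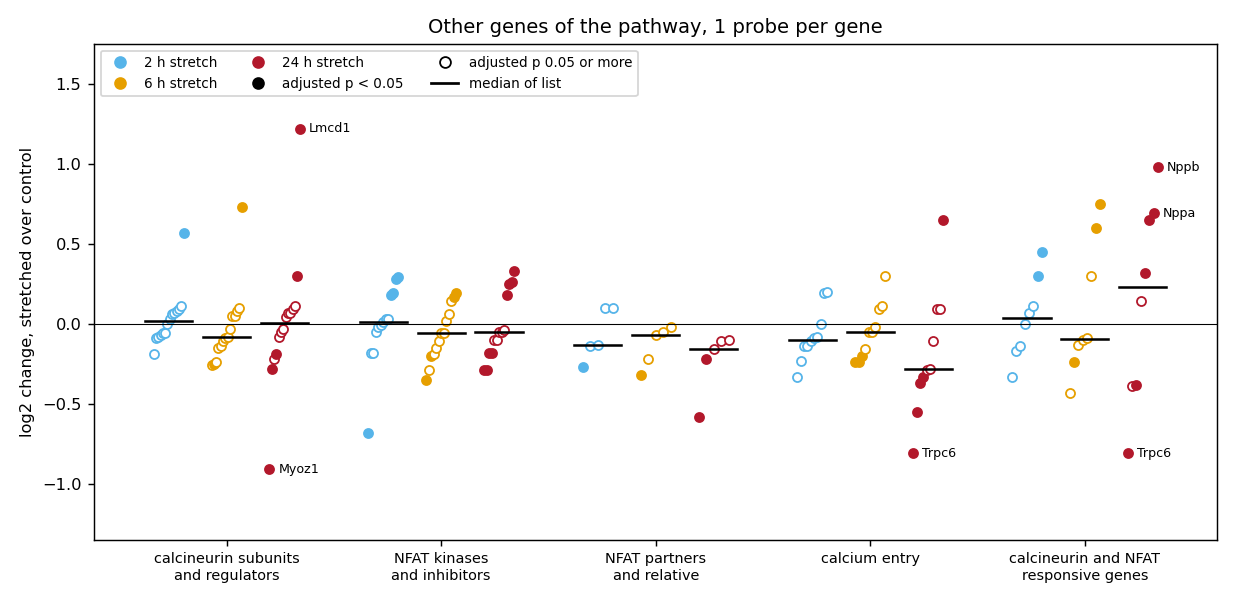
Each point is the log2 change of 1 gene, stretched over control, for 5 lists of pathway genes at 2, 6 and 24 h, with filled points called and a black line at the median of the list. Most points lie close to 0. Lmcd1 (1.22) and Nppb (0.98) are the highest at 24 h, and Myoz1 (-0.91, a dim probe) and Trpc6 (-0.81) the lowest. All of these named genes kept their sign under the 5 other scalings.

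The genes whose profile over the 12 arrays was most like that of the downstream Rcan1 probe, among 12637 others, were Myc (Pearson r = 0.991), Rnd1 (0.990), Fosl1 (0.987), Tomm70 (0.986) and Uck2 (0.982). Myc and Fosl1 encode transcription factors of growth and of AP-1, Rnd1 a small GTPase that acts on actin, Tomm70 a receptor of mitochondrial protein import and Uck2 a kinase of pyrimidine salvage. Myc changed by 0.47, 0.51 and 1.07 at 2, 6 and 24 h, and Rnd1 by 0.88, 0.94 and 1.80. Fosl1 changed by 0.60, 0.74 and 1.46, Uck2 by 0.26, 0.48 and 0.83, and Tomm70 by 0.14, 0.18 and 0.35.

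The upstream Rcan1 probe had r = 0.975 with the downstream probe, Lmcd1 had 0.98 and Nppb 0.96. Among members, Nfatc3 had 0.56, Ppp3ca 0.36, Ppp3cb -0.24, Ppp3r1 -0.26, Nfatc4 -0.26 and Rcan2 -0.87. These correlations describe 12 arrays that share 4 group means and the same scaling.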

How the data were processed

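Cy3-labelled RNA of 12 cultures was measured on 1-colour Agilent rat arrays, each sample on its own array. Spots were quantified by Feature Extraction, version 11.0.1.1 per the file headers and 10.7.3.1 per the submitters' processing notes. The deposited processed signal is a linear intensity, background-subtracted and with spatial trends removed within the array, per the file headers; mean signal, local background and spot flags (other values, 0 or 1) come from the same deposited files. The deposited series matrix is an intensity table whose scaling between arrays no source used here states, and it served as an alternative.

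The log2 processed signal was averaged over the spots of a probe without outlier spots (224 to 359 per array), and each array's 75th percentile was subtracted. Testing was limited to probes that some group had well above background on each of its 3 arrays. A model with 4 group means was fitted with limma 3.58.1 in R 4.3.3 (two-sided, Benjamini-Hochberg over 18997 probes) and tested on simulated data. Exact permutation tests used scipy 1.17.1 and numpy 2.4.6. A gene of a list was read by its brightest kept probe; probes were named by accession (17997), symbol (2676) or synonym (547), 1933 kept the file's name and 7214 had none. Positions are on rn4 per the files. The members and lists were chosen with earlier results of these data known. Named were all members, up to 4 called genes of each list and time with the largest change (a gene named at one time may be given at others), genes a sentence turns on, and the 5 genes most like Rcan1; 1 gene counted in the lists is not reported here by name. Alternatives were other scalings, filters, probe rules, a slide or replicate term, and leaving out each array. The precision is limited by the 3 arrays per group.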

Additional observations from a re-analysis of the deposited data

Results flagged for a closer look

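For several members the change against control differed between stretch times by limma's test of that difference. The downstream Rcan1 probe was 0.52 ± 0.07 higher at 24 h than at 6 h (adjusted p = 0.00043) and 0.63 ± 0.07 higher than at 2 h (adjusted p = 5.77e-05). The upstream Rcan1 probe gave 0.58 ± 0.09 (adjusted p = 0.00134) and 0.64 ± 0.09 (adjusted p = 0.000333) for these differences. The downstream Rcan2 probe gave -0.39 ± 0.06 for 6 h against 2 h, -0.36 ± 0.06 for 24 h against 6 h and -0.75 ± 0.06 for 24 h against 2 h, against -0.04, -0.34 and -0.38, none called, with spike-in scaling; with the slide as a term 24 h against 6 h was -0.35 (adjusted p = 0.0575). The upstream Rcan2 probe gave -0.27 ± 0.09 for 24 h against 2 h (adjusted p = 0.038), a call lost in 14 of 24 alternatives. Ppp3ca was 0.19 ± 0.05 and Nfatc4 0.36 ± 0.07 higher at 24 h than at 2 h, and with the slide as a term these differences were 0.27 ± 0.09 and 0.30 ± 0.14, not called.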

How the results depend on the processing

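Of 1696 alternative values for the counts, the members and their differences between times, 1552 kept their side of the threshold. Called values among these also kept their direction, while in 68 the sign changed between values that were not called. Rcan1 was called higher at 6 h in 26 of 26 alternatives and at 24 h in 25 of 25. The causes of the changes below were not tested, except where fewer arrays or probes entered a fit.

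With spike-in scaling, Rcan1 at 2 h was 0.48 (adjusted p = 0.391) and 24 h against 6 h 0.55 (0.0702); 103 probes were called at 2 h, 0 members at 2 h (2 at an unadjusted p below 0.05) and 1 member, Rcan1, at 6 h. Called values that took the other sign under that scaling were 0.16 for Ppp3cb and 0.00 for Nfatc4 at 6 h, and 0.10 for the upstream Rcan2 probe at 24 h against 2 h. Spike-in scaling without control replicate 2, chosen after seeing the data, gave 0.28 for Rcan1 at 2 h (0.465) and 0.45 for 6 h against 2 h (0.0232), 46, 179 and 4084 probes called at 2, 6 and 24 h, 0 members at 2 h (1 at an unadjusted p below 0.05), 1 member at 6 h, and 0.10 for the upstream Rcan2 probe at 24 h against 2 h. On slide 2 only, also chosen later, Rcan1 at 24 h against 6 h was 0.52 (0.128), with 1 array at 6 h assumed to vary like those at 24 h. Array median scaling called 4 members at 24 h.

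Probes called at 2 h were 530 with no filter, 270 with only the 2 groups and 681 on slide 1 only, and at 6 h 1321, 2273 and 1229. With the slide as a block 1731 were called at 6 h and 2180 at 24 h. Leaving out 1 array gave 576 to 1367 at 2 h, 1168 to 2759 at 6 h and 6891 to 8755 at 24 h, with 2, 3 to 4 and 2 to 4 members called. Of the calls at 24 h, 68.5% were lower with the 75th percentile, 28.7% with array median, 46.9% with quantile, 11.1% with spike-in, 46.9% with normexp and quantile, and 57.3% in the series matrix; at 6 h these were 71.3%, 28.6%, 49.1%, 1.93%, 49.8% and 59.6%, and at 2 h array median scaling gave 47.6%, against 66.5%.

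The replicate numbers showed no sign of pairing the samples: deviations from group means correlated at -0.10 to 0.08 over 18 pairs. With 3 arrays per group this cannot show that the samples were unpaired. With the replicate block 1005, 2302 and 8094 probes were called at 2, 6 and 24 h and Rcan1 stayed at 0.45, 0.55 and 1.07; Ppp3cb at 6 h was lost (0.0649) and Nfatc4 at 24 h was called (0.0379).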
